A study of Homo sapiens with 54 samples.

Results

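DNA replication and nucleotide supply genes were followed in MDA-MB-231 cells, a line derived from a triple-negative breast cancer, by RNA sequencing. The set held 39 genes chosen by symbol for their known functions, out of 27978 in the count table, and all 39 passed the filter on low counts in every comparison. They were put into 7 roles: origin licensing with 11 genes, helicase activation with 6, polymerases and primase with 6, clamp and clamp loader with 5, strand protection and Okazaki fragment processing with 3, nucleotide supply with 5, and chromatin assembly and methylation maintenance with 3. Members and roles were chosen with earlier results of these data known. Counts of members beside the shares of all genes are therefore a description and not an independent test.

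DNA is copied from origins that are licensed in G1, when the origin recognition complex with CDC6 and CDT1 loads the MCM helicase onto chromatin. CDC45 and the GINS complex turn the loaded helicase into the moving fork, where primase and the polymerases copy the strands, PCNA holds the polymerases on DNA, and ribonucleotide reductase, thymidylate synthase and their partners supply the deoxynucleotides. Most of these genes are transcribed from late G1 into S phase by E2F factors, so their summed RNA is a common readout of how much of a culture is proliferating.

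The question was what happened to these genes in cells given Compound Kushen Injection (CKI), a clinical extract of medicinal roots, mixtures of CKI from which named compounds had been taken out, or mixtures of those compounds alone. CKI was given at 2 mg/ml and each mixture at the amount equivalent to it. N-OmtOspc was CKI without oxymatrine and oxysophocarpine, and N-MacOmtOspc lacked macrozamin as well. OmtOspc held oxymatrine and oxysophocarpine alone, and MacOmtOspc these with macrozamin. N-Mac, N-Nme, N-Omt and N-Tri were CKI without macrozamin, N-methylcytisine, oxymatrine and trifolirhizin. In batch 1 untreated cells, CKI, N-OmtOspc, N-MacOmtOspc, OmtOspc and MacOmtOspc were sampled at 24 and 48 h, and in batch 2 untreated cells, CKI, N-Mac, N-Nme, N-Omt and N-Tri were sampled at 48 h. Each of the 18 groups had 3 libraries, 54 in all. The series gives the replicates as biological but does not tie each to a culture of its own, so p-values measure the spread between these libraries. All groups are of 1 cell line, and cell number and cell cycle phase were not measured here. In bulk RNA, fewer cells in S phase and less RNA per cell cannot be told apart.

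Libraries held 17673537 to 26138924 counted reads, with a median of 22568666.5. Levels are given as CPM, counts scaled to library size by factors set over all 54 libraries, which are not corrected for gene length, so levels are compared within a gene and not between genes. VIM, a mesenchymal gene that marks this line, was at 489 to 1565 CPM in the 54 libraries. ESR1 and PGR, the hormone receptor genes that triple-negative cells lack, reached at most 0.334 and 0.0923 CPM. Of the epithelial genes taken as low or absent in this line, CDH1 was at 0.0489 to 7.20 CPM and EPCAM at 6.19 to 27.7 CPM, neither at 0 in any library. The summed fibroblast markers were at 14.5 to 99.7 CPM with DCN at 0 in 38 libraries. Among the libraries of batch 1, 3 at 24 h stood apart: CKI replicate 1, N-MacOmtOspc replicate 2 and OmtOspc replicate 2. Over 473 genes that differed by at least 2-fold between the untreated groups of the batches at 48 h, each of these 3 deviated from the other replicates of its group towards batch 2, with regression slopes of 0.576 to 0.654, against -0.42 to 0.11 in the other 33. Counts of called members that involve them, and the medians against untreated cells, are given with and without them. Exons of 18 of the 39 genes overlap another annotated gene and 8 have a similarly named pseudogene, and the strand setting of the counting is not given in the sources used here, so reads from such partners cannot be told apart. TYMS, which overlaps ENOSF1 and TYMSOS on the opposite strand, MCM7, MCM2 and GINS2 are among the overlapped genes.

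Promoters of the members were read for the E2F site, since E2F factors are the textbook regulators of this set. RefSeq promoter windows of GRCh38.p14, from 250 bases before to 50 after a start, were found for 35 of the 39 genes. MCM4, MCM5, GINS4 and RPA2 had no entry. The letters TTTCCCGC, TTTCGCGC, TTTGCCGC or TTTGGCGC, on either strand, stood in a window of 20 of the 35 genes (57.1%), against 1090 of all 27305 genes (3.99%). With only the bases before the start, the share was 42.9% of the members against 3.40% of all genes. A CCAAT box (CCAAT, either strand) was found in 21 of the 35 genes, against 39.7% of all genes. The cell cycle element CHR (TTTGAA or TTCGAA, either strand) was found in 3 of the 35, against 19.5%. The 250 bases before the start of PCNA (chr20:5126623-5126872, minus strand), UHRF1 (chr19:4909251-4909500, plus strand) and TYMS (chr18:657403-657652, plus strand) are shown because these genes carry much of what follows, each with the lowest mean response of its role, and all hold the same match. Each is written 5′ to 3′ on the gene's strand with the match in capitals. A match of letters is a description and not a bound site. Another start of PCNA and another of UHRF1 had no E2F match in the window. RRM2 and MCM10, at mean log2 fold changes against untreated cells of -2.06 and -1.83, had no match, and GINS2, at -2.19, had 1. Among members lowered less, GINS3 (-0.53) and CDC6 (-0.60) had 1 each, and ORC1 (-0.61) and ORC6 (-0.47) had none. Whether a match goes with a deeper loss was not tested.
PCNA: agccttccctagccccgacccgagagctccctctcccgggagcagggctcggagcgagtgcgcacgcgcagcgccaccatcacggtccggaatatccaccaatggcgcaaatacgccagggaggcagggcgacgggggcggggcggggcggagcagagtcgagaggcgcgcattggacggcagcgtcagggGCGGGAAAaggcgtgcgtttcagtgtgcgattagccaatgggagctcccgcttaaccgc
UHRF1: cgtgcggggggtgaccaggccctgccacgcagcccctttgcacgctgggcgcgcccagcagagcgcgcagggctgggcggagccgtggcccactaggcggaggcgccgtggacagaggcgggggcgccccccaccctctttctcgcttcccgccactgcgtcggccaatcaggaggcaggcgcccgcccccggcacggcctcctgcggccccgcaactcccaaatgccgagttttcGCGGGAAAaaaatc
TYMS: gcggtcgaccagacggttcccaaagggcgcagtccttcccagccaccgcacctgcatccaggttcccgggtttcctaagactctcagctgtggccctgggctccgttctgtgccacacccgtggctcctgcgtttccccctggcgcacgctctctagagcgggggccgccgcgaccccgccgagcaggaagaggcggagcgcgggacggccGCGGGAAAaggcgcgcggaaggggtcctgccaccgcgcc

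After 48 h each treatment left most replication genes below their untreated level, and the deepest losses came with CKI mixtures from which compounds had been removed. At 48 h the median member was at a log2 fold change of -2.33 with N-MacOmtOspc, -2.03 with N-OmtOspc and -2.35 with N-Omt, while whole CKI gave -0.32 in batch 1 and -0.40 in batch 2. The median of all genes tested lay between -0.02 and 0.03 in each of the 15 comparisons. UHRF1, TYMS and GINS2 were among the members that lost most, and RPA2, ORC1, ORC6 and GINS3 among those that lost least. MCM2, MCM5, MCM7, GINS2, GINS4, POLE2, LIG1, TYMS, DUT and UHRF1 were called lower in all 15 comparisons. Except for GINS4 and LIG1, their calls with OmtOspc and MacOmtOspc at 24 h were lost in some of the alternative settings. The share of all genes called lower in all 15 is not given. A gene was called at a Benjamini-Hochberg adjusted p under 0.05 in edgeR's quasi-likelihood test, fitted over all genes that passed the filter.

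At 24 h CKI lowered 29 of the 39 members and raised none, where 19.3% of all genes were lower and 19.3% higher. Of the called members, 10 fell to a log2 fold change of -1 or less. Here and below, the share of all genes at such depths is not given. N-OmtOspc lowered 35 and raised ORC1 alone (33.8% and 33% of all genes), and N-MacOmtOspc lowered all 39 and raised none (22.1% and 23.8%). OmtOspc lowered 11 and raised none (7.92% and 8.54%) and MacOmtOspc lowered 16 and raised CDC6 alone (17.7% and 18.1%). The medians at 24 h were -0.76 with CKI, -1.63 with N-OmtOspc, -1.72 with N-MacOmtOspc, -0.27 with OmtOspc and -0.18 with MacOmtOspc. They were -0.58 with CKI without CKI replicate 1, -2.05 with N-MacOmtOspc without its replicate 2 and -0.29 with OmtOspc without its replicate 2. Scaling by library sizes alone moved the median of all genes by -0.30 with N-OmtOspc at 24 h, and the members' median there was then -1.95. The calls with OmtOspc and MacOmtOspc rested on single libraries: of OmtOspc, 3, 2 and 5 members were called without untreated replicates 1, 2 and 3, 22 without OmtOspc replicate 1, 16 without replicate 2, which stood apart, and 3 without replicate 3. Of MacOmtOspc, 8 were called without untreated replicate 2 and 10 without MacOmtOspc replicate 2. With all 18 libraries of that time in a single fit, each mixture had 2 calls. Without CKI replicate 1 the CKI count was 33, and without N-MacOmtOspc replicate 2 it was 39 for that mixture. For these and later counts under an alternative setting, the share of all genes called is not given. Whether a change in such a count is particular to the members was not tested.

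At 48 h in batch 1 CKI lowered 28 members and raised 3, against 31% and 31.6% of all genes. N-OmtOspc lowered 37 and again raised ORC1 (40.4% and 40.1% of all genes). N-MacOmtOspc lowered all 39 (32.3% of all genes lower and 32.4% higher), OmtOspc all 39 (33.7% and 34.1%) and MacOmtOspc 37 (30.1% and 30.5%), each without a member raised. The loss went deepest with N-MacOmtOspc, where 37 called members were at a log2 fold change of -1 or less and 25 at -2 or less. With N-OmtOspc the numbers of called members were 34 and 20. They were 22 and 2 with OmtOspc, 15 and 0 with MacOmtOspc, and 3 and 0 with CKI. The medians of OmtOspc and MacOmtOspc were -1.11 and -0.91.

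In batch 2 CKI lowered 30 members and raised 2 (34.4% and 34.1% of all genes). N-Mac lowered 38 (36% of all genes lower and 36.5% higher), N-Nme 38 (34.6% and 34.9%), N-Omt 38 (40.2% and 39.4%) and N-Tri 39 (37.2% and 37.1%), and none of them raised a member. The member without a call with N-Mac, N-Nme and N-Omt was RPA2, a subunit of the protein that coats single-stranded DNA. The medians were -1.33 with N-Mac, -1.55 with N-Nme, -2.35 with N-Omt and -1.66 with N-Tri. Called members at -2 or less numbered 25 with N-Omt, 14 with N-Tri, 7 with N-Nme and 6 with N-Mac. The 5 treatments of a batch and time share their untreated libraries, and the mixtures of batch 2 were not tested against each other.

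**Figure D1:**
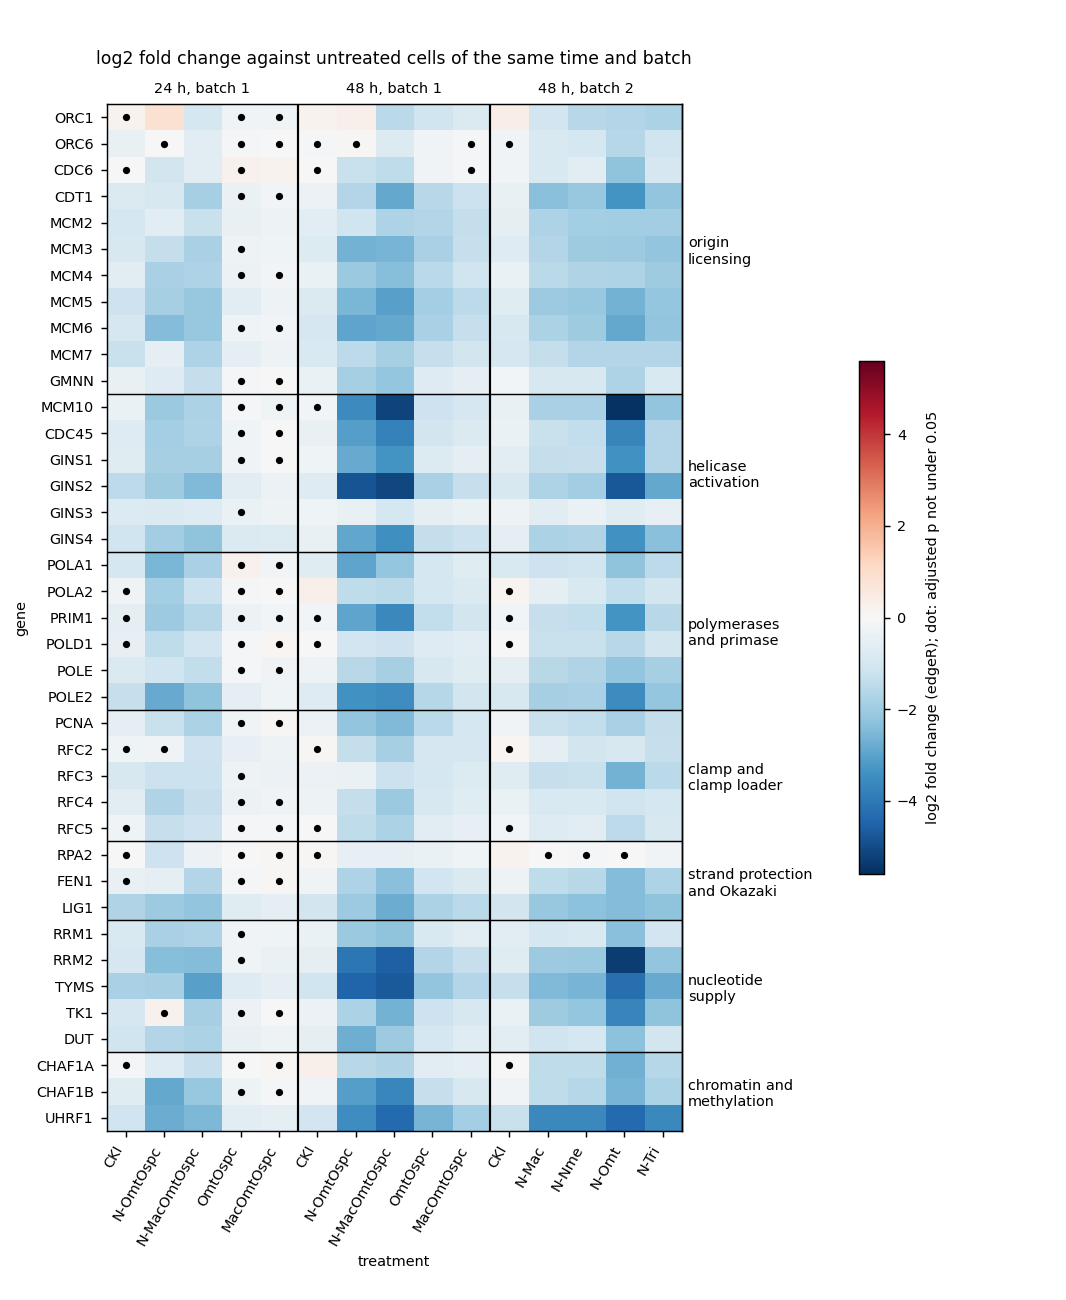
Log2 fold change against untreated cells of the same time and batch for the 39 genes (rows, grouped by role) in the 15 comparisons (columns), with colour as the log2 scale and a dot where the gene was not called. The N-MacOmtOspc columns are below 0 for all 39 genes and the OmtOspc and MacOmtOspc columns at 24 h hold most of the dots.

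Single libraries were close to these medians at 48 h, with the N-Tri and N-Nme libraries interleaved. The median log2 ratio of the members to the untreated mean of the same time and batch was -2.37, -2.44 and -2.33 in the N-MacOmtOspc libraries at 48 h, -2.01, -1.98 and -1.999 with N-OmtOspc, -1.11, -1.07 and -1.12 with OmtOspc, -0.88, -0.89 and -0.90 with MacOmtOspc and -0.28, -0.35 and -0.38 with CKI. In batch 2 it was -2.35, -2.32 and -2.38 with N-Omt, -1.63, -1.62 and -1.85 with N-Tri, -1.45, -1.64 and -1.53 with N-Nme, -1.32, -1.41 and -1.42 with N-Mac and -0.46, -0.43 and -0.41 with CKI. All 45 treated libraries were below their untreated libraries in this median. At 24 h replicates were further apart: -2.02, -1.10 and -2.09 with N-MacOmtOspc and -1.07, -0.56 and -0.59 with CKI, where N-MacOmtOspc replicate 2 and CKI replicate 1 stood apart from their groups in opposite directions.

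**Figure D2:**
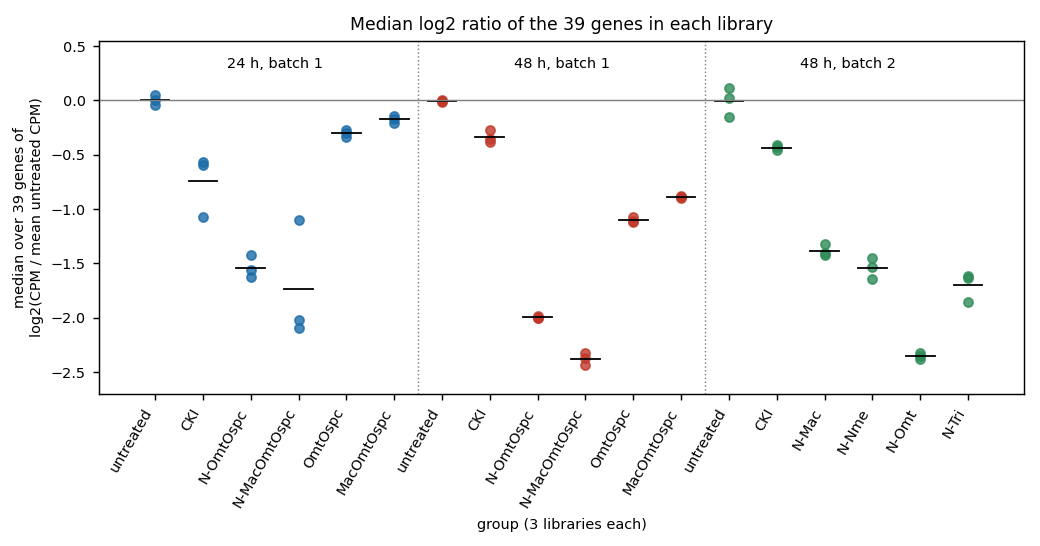
Median over the 39 genes of the log2 ratio of CPM to the untreated mean of the same time and batch, with a point for each of the 54 libraries in 18 groups. All treated libraries at 48 h lie below the untreated ones, and the N-MacOmtOspc libraries at 24 h spread most.

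Origin licensing genes were lowered most through the MCM helicase and CDT1, the loading factor, and least through the recognition complex and CDC6. MCM5, a subunit of the helicase ring, had the lowest mean response of the role and was called lower in all 15 comparisons, from -0.29 ± 0.077 (log2 fold change ± SE) with MacOmtOspc at 24 h to -3.03 ± 0.16 with N-MacOmtOspc at 48 h. The calls of MCM5 and of other members with OmtOspc and MacOmtOspc at 24 h rested on the libraries named above. MCM5 was at 158, 154 and 142 CPM in untreated cells at 24 h, at 38.0, 83.1 and 85.0 with CKI, 45.6, 42.6 and 35.4 with N-OmtOspc, 33.9, 40.7 and 27.7 with N-MacOmtOspc, 115, 85.0 and 90.7 with OmtOspc and 137, 119 and 115 with MacOmtOspc. MCM5 at 48 h in batch 1 was at 126, 134 and 141 CPM in untreated cells, 79.9, 72.1 and 72.8 with CKI, 23.0, 22.5 and 22.5 with N-OmtOspc, 14.0, 21.6 and 13.5 with N-MacOmtOspc, 35.9, 37.2 and 35.0 with OmtOspc and 45.6, 50.5 and 50.5 with MacOmtOspc. MCM5 in batch 2 was at 91.2, 93.1 and 75.4 CPM in untreated cells, 57.01, 52.8 and 53.1 with CKI, 22.1, 21.9 and 19.9 with N-Mac, 19.5, 18.0 and 21.9 with N-Nme, 15.0, 12.7 and 13.0 with N-Omt and 21.0, 18.7 and 18.0 with N-Tri. MCM5 was below every untreated library of its time and batch in all 45 treated libraries. For the other genes, too, treated libraries are set against untreated libraries of the same time and batch. CDT1, which GMNN holds in check outside G1, was at -3.35 with N-Omt and -2.85 with N-MacOmtOspc at 48 h, and GMNN at -1.71 and -2.18, all called. MCM6 was at -2.96 with N-OmtOspc at 48 h and MCM3 at -2.64, against -1.47 for MCM7 and -1.11 for MCM2, all 4 called lower and all parts of the same ring.

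ORC6, a small subunit of the origin recognition complex, changed least on average in this role. ORC6 was at 24.4, 23.1 and 22.6 CPM in untreated cells at 24 h, at 14.7, 18.9 and 18.2 with CKI, 20.8, 18.9 and 27.7 with N-OmtOspc, 17.0, 12.3 and 14.8 with N-MacOmtOspc, 23.4, 22.2 and 20.9 with OmtOspc and 24.0, 22.4 and 25.1 with MacOmtOspc. ORC6 at 48 h in batch 1 was at 20.7, 23.1 and 20.1 CPM in untreated cells, 19.1, 20.6 and 20.5 with CKI, 23.7, 20.6 and 23.1 with N-OmtOspc, 12.7, 9.25 and 14.9 with N-MacOmtOspc, 19.2, 18.9 and 17.6 with OmtOspc and 19.6, 20.1 and 19.7 with MacOmtOspc. ORC6 in batch 2 was at 22.2, 23.5 and 19.0 CPM in untreated cells, 17.6, 19.5 and 18.5 with CKI, 13.0, 11.0 and 11.3 with N-Mac, 11.1, 10.3 and 11.4 with N-Nme, 7.15, 7.17 and 7.17 with N-Omt and 9.38, 10.1 and 10.4 with N-Tri. Its treated libraries overlapped the untreated ones with N-OmtOspc, OmtOspc and MacOmtOspc at 24 h, with CKI and N-OmtOspc at 48 h in batch 1, and with CKI in batch 2. ORC6 was called lower with N-Omt at -1.58 ± 0.098 and with N-MacOmtOspc at 48 h at -0.78 ± 0.16. The call with CKI at 24 h (-0.43) was lost without untreated replicate 1, 2 or 3, and the call with OmtOspc at 48 h (-0.20) without untreated replicate 2 or OmtOspc replicate 2 or 3.

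ORC1, an ATP-binding subunit of the same complex, went opposite ways in mixtures. ORC1 was at 21.8, 19.1 and 20.3 CPM in untreated cells at 24 h, at 21.3, 23.7 and 23.9 with CKI, 40.6, 35.7 and 32.5 with N-OmtOspc, 7.73, 13.0 and 9.38 with N-MacOmtOspc, 16.2, 19.4 and 17.7 with OmtOspc and 15.8, 16.8 and 18.8 with MacOmtOspc. ORC1 at 48 h in batch 1 was at 15.3, 15.2 and 13.9 CPM in untreated cells, 17.0, 16.6 and 17.1 with CKI, 19.2, 16.3 and 17.7 with N-OmtOspc, 4.77, 5.21 and 5.54 with N-MacOmtOspc, 6.47, 7.25 and 6.80 with OmtOspc and 8.91, 7.60 and 8.57 with MacOmtOspc. ORC1 in batch 2 was at 17.0, 17.5 and 14.0 CPM in untreated cells, 20.2, 19.0 and 22.3 with CKI, 7.25, 8.13 and 7.48 with N-Mac, 6.72, 4.39 and 5.30 with N-Nme, 5.06, 5.17 and 5.00 with N-Omt and 5.07, 4.75 and 4.45 with N-Tri. Every library lay above the untreated ones with N-OmtOspc at 24 and 48 h and with CKI at 48 h in both batches. All libraries lay below them with N-MacOmtOspc and MacOmtOspc at 24 and 48 h, with OmtOspc at 48 h and with all 4 batch 2 mixtures. ORC1 rose with N-OmtOspc at 24 h by 0.85 ± 0.12 (edgeR's quasi-likelihood test, Benjamini-Hochberg adjusted p = 2.71e-04) and with CKI in batch 2 by 0.36 ± 0.094. The rise with N-OmtOspc at 48 h (0.26 ± 0.091) was lost without untreated replicate 3 or N-OmtOspc replicate 1, and that with CKI in batch 1 (0.20 ± 0.082) without untreated replicate 2 or 3 or CKI replicate 1, 2 or 3. ORC1 fell to -1.77 ± 0.11 with N-Tri, -1.66 ± 0.11 with N-Omt and -1.51 ± 0.13 with N-MacOmtOspc at 48 h.

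CDC6, the ATPase that works with the recognition complex to load the helicase, had its lowest value with N-Omt. CDC6 was at 88.9, 93.6 and 94.8 CPM in untreated cells at 24 h, at 70.8, 103 and 102 with CKI, 47.4, 40.3 and 47.4 with N-OmtOspc, 47.9, 77.1 and 51.4 with N-MacOmtOspc, 106, 108 and 117 with OmtOspc and 104, 101 and 114 with MacOmtOspc. CDC6 at 48 h in batch 1 was at 93.9, 89.5 and 87.4 CPM in untreated cells, 94.0, 89.7 and 92.8 with CKI, 39.1, 35.8 and 37.8 with N-OmtOspc, 32.7, 35.5 and 32.7 with N-MacOmtOspc, 83.2, 77.3 and 77.1 with OmtOspc and 88.0, 82.2 and 88.5 with MacOmtOspc. CDC6 in batch 2 was at 91.2, 95.2 and 95.1 CPM in untreated cells, 77.0, 81.6 and 83.2 with CKI, 50.8, 51.0 and 54.4 with N-Mac, 63.9, 63.1 and 62.3 with N-Nme, 18.7, 19.6 and 20.6 with N-Omt and 50.0, 52.6 and 43.0 with N-Tri. With OmtOspc and MacOmtOspc at 24 h the treated libraries lay above the untreated ones, and with CKI at 24 h and CKI and MacOmtOspc at 48 h in batch 1 they overlapped. CDC6 was at -2.25 ± 0.056 with N-Omt, -1.26 ± 0.065 with N-OmtOspc at 48 h and -1.42 ± 0.089 with N-MacOmtOspc at 48 h, all called lower. With MacOmtOspc at 24 h it was called higher at 0.20 ± 0.067, a call lost without untreated replicate 1 or 2 or MacOmtOspc replicate 2 or 3.

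Helicase activation genes held the deepest losses among the fork proteins. GINS2, a subunit of the GINS complex, fell in all 15 comparisons, to -5.08 ± 0.21 with N-MacOmtOspc and -4.83 ± 0.15 with N-OmtOspc at 48 h. GINS2 was at 30.9, 30.2 and 26.2 CPM in untreated cells at 24 h, at 6.16, 13.0 and 13.0 with CKI, 8.74, 8.97 and 4.27 with N-OmtOspc, 3.225, 8.95 and 3.19 with N-MacOmtOspc, 20.9, 18.3 and 16.9 with OmtOspc and 22.8, 24.1 and 21.9 with MacOmtOspc. GINS2 at 48 h in batch 1 was at 21.0, 21.6 and 22.2 CPM in untreated cells, 12.9, 13.3 and 12.3 with CKI, 0.618, 0.774 and 0.867 with N-OmtOspc, 0.405, 0.957 and 0.567 with N-MacOmtOspc, 5.84, 7.12 and 5.42 with OmtOspc and 8.70, 9.16 and 9.00 with MacOmtOspc. GINS2 in batch 2 was at 16.5, 17.4 and 15.1 CPM in untreated cells, 8.41, 9.09 and 8.72 with CKI, 4.81, 5.18 and 4.85 with N-Mac, 4.42, 4.85 and 3.66 with N-Nme, 0.596, 0.625 and 0.556 with N-Omt and 2.26, 2.59 and 1.86 with N-Tri. All treated libraries were below the untreated ones of the same time and batch. At 48 h the N-OmtOspc, N-MacOmtOspc and N-Omt libraries were far below the other treated groups. MCM10, which joins CDC45 and the helicase at the start of unwinding, was at -5.53 with N-Omt and -5.19 with N-MacOmtOspc at 48 h, the lowest values of any member in those comparisons. CDC45 was at -3.68 and -3.79, GINS1 at -3.41 and -3.35, and GINS4 at -3.38 and -3.45, all called lower. With CKI at 48 h in batch 1 CDC45 and GINS4 were both at -0.42 and GINS1 at -0.24, called lower, and MCM10 was at -0.16, without a call.

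GINS3, another subunit of the same complex, moved far less than GINS2. GINS3 was at 16.8, 18.4 and 16.7 CPM in untreated cells at 24 h, at 8.23, 11.3 and 11.2 with CKI, 8.43, 7.82 and 12.6 with N-OmtOspc, 10.3, 10.4 and 10.5 with N-MacOmtOspc, 13.5, 14.0 and 12.8 with OmtOspc and 14.2, 14.6 and 14.3 with MacOmtOspc. GINS3 at 48 h in batch 1 was at 16.0, 15.2 and 13.5 CPM in untreated cells, 13.0, 12.8 and 11.8 with CKI, 10.9, 12.5 and 10.1 with N-OmtOspc, 8.06, 6.43 and 7.67 with N-MacOmtOspc, 10.8, 9.21 and 10.7 with OmtOspc and 10.8, 11.6 and 11.9 with MacOmtOspc. GINS3 in batch 2 was at 13.3, 14.1 and 13.3 CPM in untreated cells, 11.8, 10.6 and 10.3 with CKI, 8.71, 8.40 and 9.74 with N-Mac, 10.4, 10.2 and 11.0 with N-Nme, 7.87, 7.80 and 9.499 with N-Omt and 11.2, 9.70 and 8.95 with N-Tri. Its treated libraries were also all below the untreated ones of the same time and batch. The lowest value, however, was -1.001 ± 0.13, with N-MacOmtOspc at 48 h. With N-Omt GINS3 was at -0.69 where GINS2 was at -4.76. The call of GINS3 with CKI at 48 h in batch 1 (-0.24) was lost without untreated replicate 1 or 2 or CKI replicate 2 or 3.

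Polymerase and primase genes fell in a graded way. POLE2, an accessory subunit of the leading strand polymerase, was called lower in all 15 comparisons and reached -3.53 ± 0.16 with N-Omt and -3.49 ± 0.18 with N-MacOmtOspc at 48 h. POLE2 was at 23.2, 24.1 and 24.3 CPM in untreated cells at 24 h, at 6.03, 11.5 and 11.4 with CKI, 3.12, 4.45 and 2.49 with N-OmtOspc, 3.75, 7.14 and 4.14 with N-MacOmtOspc, 17.1, 17.5 and 14.1 with OmtOspc and 19.7, 20.6 and 19.8 with MacOmtOspc. POLE2 at 48 h in batch 1 was at 19.3, 18.5 and 17.9 CPM in untreated cells, 11.2, 10.8 and 11.7 with CKI, 2.03, 2.20 and 1.06 with N-OmtOspc, 1.26, 1.49 and 2.14 with N-MacOmtOspc, 5.74, 6.14 and 6.48 with OmtOspc and 9.38, 8.57 and 9.13 with MacOmtOspc. POLE2 in batch 2 was at 17.7, 19.8 and 14.4 CPM in untreated cells, 8.41, 9.30 and 9.40 with CKI, 3.90, 5.01 and 5.10 with N-Mac, 4.38, 5.36 and 4.91 with N-Nme, 1.66, 1.38 and 1.41 with N-Omt and 3.67, 3.97 and 3.77 with N-Tri. No treated library reached its untreated libraries. POLE, the catalytic subunit of the same enzyme, was at -2.19 and -1.86 in those comparisons, and POLD1, that of the lagging strand polymerase, at -1.57 and -1.16. PRIM1, which lays the RNA primers, was at -3.34 and -3.62, and POLA1, which extends them, at -2.26 and -2.15. All were called lower.

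POLA2, the regulatory subunit that tethers polymerase alpha to primase, had the highest mean response of its role. POLA2 was at 31.8, 28.9 and 30.7 CPM in untreated cells at 24 h, at 17.7, 29.0 and 32.7 with CKI, 9.11, 6.00 and 8.97 with N-OmtOspc, 10.8, 17.5 and 10.9 with N-MacOmtOspc, 32.5, 23.6 and 27.4 with OmtOspc and 33.4, 29.9 and 28.1 with MacOmtOspc. POLA2 at 48 h in batch 1 was at 23.3, 25.2 and 24.4 CPM in untreated cells, 30.1, 28.6 and 28.6 with CKI, 8.96, 9.45 and 8.48 with N-OmtOspc, 8.02, 7.45 and 9.72 with N-MacOmtOspc, 13.2, 12.5 and 11.7 with OmtOspc and 14.0, 14.1 and 13.5 with MacOmtOspc. POLA2 in batch 2 was at 20.1, 22.0 and 17.6 CPM in untreated cells, 20.3, 21.1 and 23.2 with CKI, 15.5, 12.4 and 13.1 with N-Mac, 12.0, 10.3 and 11.2 with N-Nme, 7.32, 8.05 and 7.17 with N-Omt and 9.49, 10.3 and 9.73 with N-Tri. The CKI libraries at 48 h in batch 1 lay above the untreated ones, those with CKI, OmtOspc and MacOmtOspc at 24 h and with CKI in batch 2 overlapped them, and all others lay below. POLA2 rose with CKI at 48 h in batch 1 by 0.27 ± 0.070, was at 0.14 ± 0.088 without a call in batch 2, and fell to -1.90 ± 0.17 with N-OmtOspc at 24 h.

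Clamp genes turned on PCNA, the sliding clamp. PCNA was at 149, 143 and 135 CPM in untreated cells at 24 h, at 72.2, 103 and 119.5 with CKI, 60.4, 56.98 and 60.2 with N-OmtOspc, 36.4, 54.2 and 33.7 with N-MacOmtOspc, 142, 117 and 113 with OmtOspc and 161, 143 and 145 with MacOmtOspc. PCNA at 48 h in batch 1 was at 117, 125 and 119.6 CPM in untreated cells, 101, 94.4 and 91.6 with CKI, 25.8, 25.4 and 27.9 with N-OmtOspc, 22.3, 17.9 and 24.0 with N-MacOmtOspc, 42.2, 43.4 and 40.8 with OmtOspc and 64.7, 58.1 and 59.9 with MacOmtOspc. PCNA in batch 2 was at 101, 109 and 87.4 CPM in untreated cells, 80.6, 86.3 and 87.4 with CKI, 39.6, 41.3 and 42.3 with N-Mac, 35.9, 36.7 and 41.3 with N-Nme, 27.1, 28.4 and 28.4 with N-Omt and 41.3, 41.1 and 37.0 with N-Tri. PCNA overlapped its untreated libraries with OmtOspc and MacOmtOspc at 24 h and was below them elsewhere, with CKI in batch 2 by a margin lost in rounding. It fell to -2.48 ± 0.12 with N-MacOmtOspc, -2.19 ± 0.068 with N-OmtOspc and -1.52 ± 0.054 with OmtOspc at 48 h, and to -1.81 ± 0.075 with N-Omt. With CKI it was at -0.32 ± 0.057 at 48 h in batch 1. The call with CKI at 24 h (-0.54) was lost without untreated replicate 1, 2 or 3 or CKI replicate 2, and that with CKI in batch 2 (-0.20) without untreated or CKI replicate 1.

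RFC2, a subunit of the complex that loads PCNA, had the highest mean log2 fold change of this role, -0.726 against -0.732 for RFC5. RFC2 was at 69.2, 69.5 and 63.1 CPM in untreated cells at 24 h, at 42.6, 62.9 and 64.9 with CKI, 66.4, 62.9 and 43.7 with N-OmtOspc, 25.8, 36.6 and 27.6 with N-MacOmtOspc, 53.8, 45.7 and 47.9 with OmtOspc and 59.8, 55.7 and 52.3 with MacOmtOspc. RFC2 at 48 h in batch 1 was at 51.3, 55.3 and 51.4 CPM in untreated cells, 58.4, 54.0 and 49.3 with CKI, 21.9, 20.4 and 21.1 with N-OmtOspc, 12.2, 16.6 and 15.3 with N-MacOmtOspc, 26.6, 27.6 and 27.6 with OmtOspc and 27.8, 27.6 and 28.3 with MacOmtOspc. RFC2 in batch 2 was at 43.1, 46.5 and 39.2 CPM in untreated cells, 45.8, 45.0 and 47.4 with CKI, 30.7, 29.7 and 28.0 with N-Mac, 25.0, 20.0 and 19.1 with N-Nme, 24.6, 23.1 and 21.5 with N-Omt and 18.4, 18.2 and 16.5 with N-Tri. Overlap with the untreated libraries was seen with CKI and N-OmtOspc at 24 h and with CKI at 48 h in both batches. RFC2 was at -1.84 ± 0.12 with N-MacOmtOspc and -1.31 ± 0.073 with N-OmtOspc at 48 h, both called lower. RFC3, RFC4 and RFC5, other subunits of the loader, were at -2.65, -1.11 and -1.45 with N-Omt, all called lower, and at -0.38, -1.32 and -1.42 with N-OmtOspc at 48 h.

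Strand protection and Okazaki fragment processing split between LIG1 and RPA2. LIG1, the ligase that seals Okazaki fragments, was called lower in all 15 comparisons. LIG1 was at 94.3, 88.2 and 87.1 CPM in untreated cells at 24 h, at 23.8, 30.8 and 28.9 with CKI, 24.3, 24.1 and 17.5 with N-OmtOspc, 16.6, 24.2 and 16.6 with N-MacOmtOspc, 59.3, 57.9 and 52.6 with OmtOspc and 65.1, 64.4 and 62.7 with MacOmtOspc. LIG1 at 48 h in batch 1 was at 78.2, 83.9 and 83.6 CPM in untreated cells, 39.8, 36.7 and 44.0 with CKI, 16.7, 22.6 and 20.5 with N-OmtOspc, 12.8, 10.6 and 11.7 with N-MacOmtOspc, 22.5, 25.6 and 24.1 with OmtOspc and 29.4, 28.9 and 29.4 with MacOmtOspc. LIG1 in batch 2 was at 53.6, 60.3 and 47.5 CPM in untreated cells, 26.2, 25.0 and 26.5 with CKI, 12.7, 13.9 and 10.6 with N-Mac, 11.9, 10.2 and 10.6 with N-Nme, 10.4, 10.8 and 8.69 with N-Omt and 10.6, 12.8 and 10.2 with N-Tri. All treated libraries lay below the untreated ones of the same time and batch. LIG1 was also among the members that CKI itself lowered most, at -1.69 ± 0.11 at 24 h, -1.02 ± 0.069 at 48 h in batch 1 and -1.04 ± 0.080 in batch 2. FEN1, the nuclease that trims the fragments before LIG1 acts, was at -2.44 with N-Omt and -2.33 with N-MacOmtOspc at 48 h, both called lower.

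RPA2 had the highest mean log2 fold change of all 39 members over the 15 comparisons. RPA2 was at 64.4, 70.5 and 61.6 CPM in untreated cells at 24 h, at 61.0, 61.8 and 72.4 with CKI, 29.0, 23.6 and 34.3 with N-OmtOspc, 48.2, 56.4 and 48.4 with N-MacOmtOspc, 69.2, 68.4 and 55.5 with OmtOspc and 73.6, 66.6 and 68.3 with MacOmtOspc. RPA2 at 48 h in batch 1 was at 56.5, 58.5 and 60.1 CPM in untreated cells, 65.2, 58.4 and 57.1 with CKI, 41.8, 43.2 and 43.8 with N-OmtOspc, 40.5, 38.5 and 46.7 with N-MacOmtOspc, 47.2, 45.3 and 44.0 with OmtOspc and 50.6, 48.6 and 47.8 with MacOmtOspc. RPA2 in batch 2 was at 61.9, 59.0 and 57.6 CPM in untreated cells, 64.4, 70.3 and 64.5 with CKI, 60.9, 58.8 and 61.5 with N-Mac, 59.6, 57.8 and 54.2 with N-Nme, 57.02, 58.8 and 59.9 with N-Omt and 49.9, 53.2 and 50.5 with N-Tri. Its treated libraries overlapped the untreated ones with CKI, OmtOspc and MacOmtOspc at 24 h, with CKI at 48 h in batch 1 and with N-Mac, N-Nme and N-Omt, and lay above them with CKI in batch 2. RPA2 fell to -1.16 ± 0.15 with N-OmtOspc at 24 h and was at -0.44 ± 0.066 at 48 h. With N-Omt, where 25 members reached -2 or less, RPA2 was at -0.01 ± 0.051 with a 95% interval of -0.12 to 0.10. The rise with CKI in batch 2 (0.18 ± 0.051) was lost without CKI replicate 2, and the call with N-MacOmtOspc at 24 h (-0.34) without untreated replicate 1, 2 or 3 or N-MacOmtOspc replicate 1 or 3.

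Nucleotide supply genes were led by TYMS, thymidylate synthase, which makes the thymidine precursor of DNA and is the target of fluorouracil. TYMS was at 129.5, 123 and 114 CPM in untreated cells at 24 h, at 23.5, 40.7 and 40.2 with CKI, 39.4, 41.5 and 18.3 with N-OmtOspc, 9.30, 27.1 and 7.94 with N-MacOmtOspc, 76.9, 81.8 and 65.1 with OmtOspc and 88.6, 89.7 and 81.4 with MacOmtOspc. TYMS at 48 h in batch 1 was at 91.2, 90.7 and 86.6 CPM in untreated cells, 42.6, 42.3 and 39.4 with CKI, 4.10, 3.42 and 4.38 with N-OmtOspc, 2.97, 3.19 and 4.14 with N-MacOmtOspc, 21.0, 18.4 and 19.6 with OmtOspc and 30.6, 29.3 and 27.4 with MacOmtOspc. TYMS in batch 2 was at 81.3, 88.7 and 71.3 CPM in untreated cells, 33.3, 33.7 and 31.5 with CKI, 15.2, 12.7 and 15.2 with N-Mac, 12.8, 12.1 and 15.0 with N-Nme, 4.68, 4.00 and 4.04 with N-Omt and 12.2, 11.3 and 10.7 with N-Tri. Every treated library was below every untreated one of its time and batch. TYMS fell to -4.69 ± 0.13 with N-MacOmtOspc, -4.50 ± 0.092 with N-OmtOspc and -4.23 ± 0.10 with N-Omt at 48 h, and CKI took it to -1.82 ± 0.19, -1.10 ± 0.059 and -1.28 ± 0.074 at 24 h, at 48 h and in batch 2. RRM2, the inducible subunit of ribonucleotide reductase, was at -5.33 with N-Omt and -4.56 with N-MacOmtOspc at 48 h. TK1, the salvage kinase for thymidine, was at -3.69 and -2.65, and DUT, which removes dUTP, at -2.28 and -2.03, all called lower.

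RRM1, the large subunit of ribonucleotide reductase, was the least lowered of this role on average. RRM1 was at 159, 154 and 153 CPM in untreated cells at 24 h, at 79.6, 94.6 and 87.0 with CKI, 46.4, 49.3 and 36.2 with N-OmtOspc, 33.1, 72.8 and 33.6 with N-MacOmtOspc, 132, 144 and 136 with OmtOspc and 128, 128 and 142 with MacOmtOspc. RRM1 at 48 h in batch 1 was at 140.2, 127 and 128 CPM in untreated cells, 105, 104 and 98.4 with CKI, 32.1, 33.0 and 28.1 with N-OmtOspc, 27.3, 27.5 and 28.1 with N-MacOmtOspc, 75.9, 73.2 and 71.8 with OmtOspc and 92.5, 84.6 and 87.5 with MacOmtOspc. RRM1 in batch 2 was at 149.6, 158 and 137 CPM in untreated cells, 94.6, 102 and 98.7 with CKI, 73.2, 70.7 and 80.6 with N-Mac, 78.5, 82.1 and 88.3 with N-Nme, 29.0, 29.3 and 28.5 with N-Omt and 72.9, 73.7 and 63.6 with N-Tri. RRM1 was also below every untreated library of the same time and batch in each treated group. It reached -2.35 ± 0.061 with N-Omt, where its partner RRM2 was at -5.33 ± 0.081, and -0.85 ± 0.070 with N-Nme, where RRM2 was at -2.07 ± 0.068.

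Chromatin assembly and methylation maintenance were led by UHRF1, which brings the maintenance methyltransferase to newly copied DNA and had the lowest mean response of all 39 members. UHRF1 was at 184, 182 and 195 CPM in untreated cells at 24 h, at 63.2, 104 and 89.8 with CKI, 24.7, 26.4 and 30.1 with N-OmtOspc, 18.6, 60.3 and 17.6 with N-MacOmtOspc, 96.7, 149.6 and 113 with OmtOspc and 125, 125 and 131 with MacOmtOspc. UHRF1 at 48 h in batch 1 was at 173, 178 and 184 CPM in untreated cells, 82.4, 85.4 and 84.5 with CKI, 18.8, 13.6 and 14.8 with N-OmtOspc, 10.4, 7.76 and 8.06 with N-MacOmtOspc, 30.5, 29.3 and 27.9 with OmtOspc and 43.8, 53.1 and 45.7 with MacOmtOspc. UHRF1 in batch 2 was at 145, 155 and 124 CPM in untreated cells, 62.1, 55.4 and 61.7 with CKI, 12.0, 11.7 and 11.0 with N-Mac, 11.2, 11.0 and 13.2 with N-Nme, 7.40, 6.00 and 7.58 with N-Omt and 11.6, 12.2 and 10.4 with N-Tri. No treated library overlapped the untreated ones of its time and batch. UHRF1 fell to -4.34 ± 0.13 with N-MacOmtOspc at 48 h and -4.33 ± 0.099 with N-Omt. It also fell to -3.61 ± 0.087 with N-Mac, -3.59 ± 0.097 with N-Nme and -3.63 ± 0.092 with N-Tri, the lowest value of any member in each of these 3 comparisons. CKI took UHRF1 to -1.07 ± 0.054 in batch 1 and -1.23 ± 0.075 in batch 2.

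CHAF1A and CHAF1B are subunits of the complex that places histones behind the fork. CHAF1A was at 94.3, 90.7 and 90.8 CPM in untreated cells at 24 h, at 69.7, 97.3 and 96.4 with CKI, 55.9, 60.1 and 50.6 with N-OmtOspc, 32.5, 47.2 and 31.3 with N-MacOmtOspc, 96.6, 85.4 and 93.8 with OmtOspc and 102, 98.4 and 95.8 with MacOmtOspc. CHAF1A at 48 h in batch 1 was at 78.7, 79.6 and 82.0 CPM in untreated cells, 101, 93.7 and 92.5 with CKI, 26.7, 28.0 and 27.5 with N-OmtOspc, 23.1, 30.1 and 21.1 with N-MacOmtOspc, 51.5, 53.4 and 50.8 with OmtOspc and 52.7, 59.2 and 57.4 with MacOmtOspc. CHAF1A in batch 2 was at 63.7, 69.1 and 60.4 CPM in untreated cells, 62.6, 63.7 and 66.8 with CKI, 24.6, 23.6 and 22.7 with N-Mac, 24.4, 21.5 and 26.5 with N-Nme, 10.7, 9.96 and 9.40 with N-Omt and 20.8, 24.2 and 19.6 with N-Tri. The CHAF1A libraries lay above the untreated ones with MacOmtOspc at 24 h and CKI at 48 h in batch 1, and overlapped them with CKI and OmtOspc at 24 h and with CKI in batch 2. CHAF1A rose with CKI at 48 h in batch 1 by 0.27 ± 0.056 and was at 0.02 ± 0.056 in batch 2, without a call. It fell to -2.67 ± 0.076 with N-Omt, and CHAF1B was at -2.62 there and at -3.64 with N-MacOmtOspc at 48 h.

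**Figure D3:**
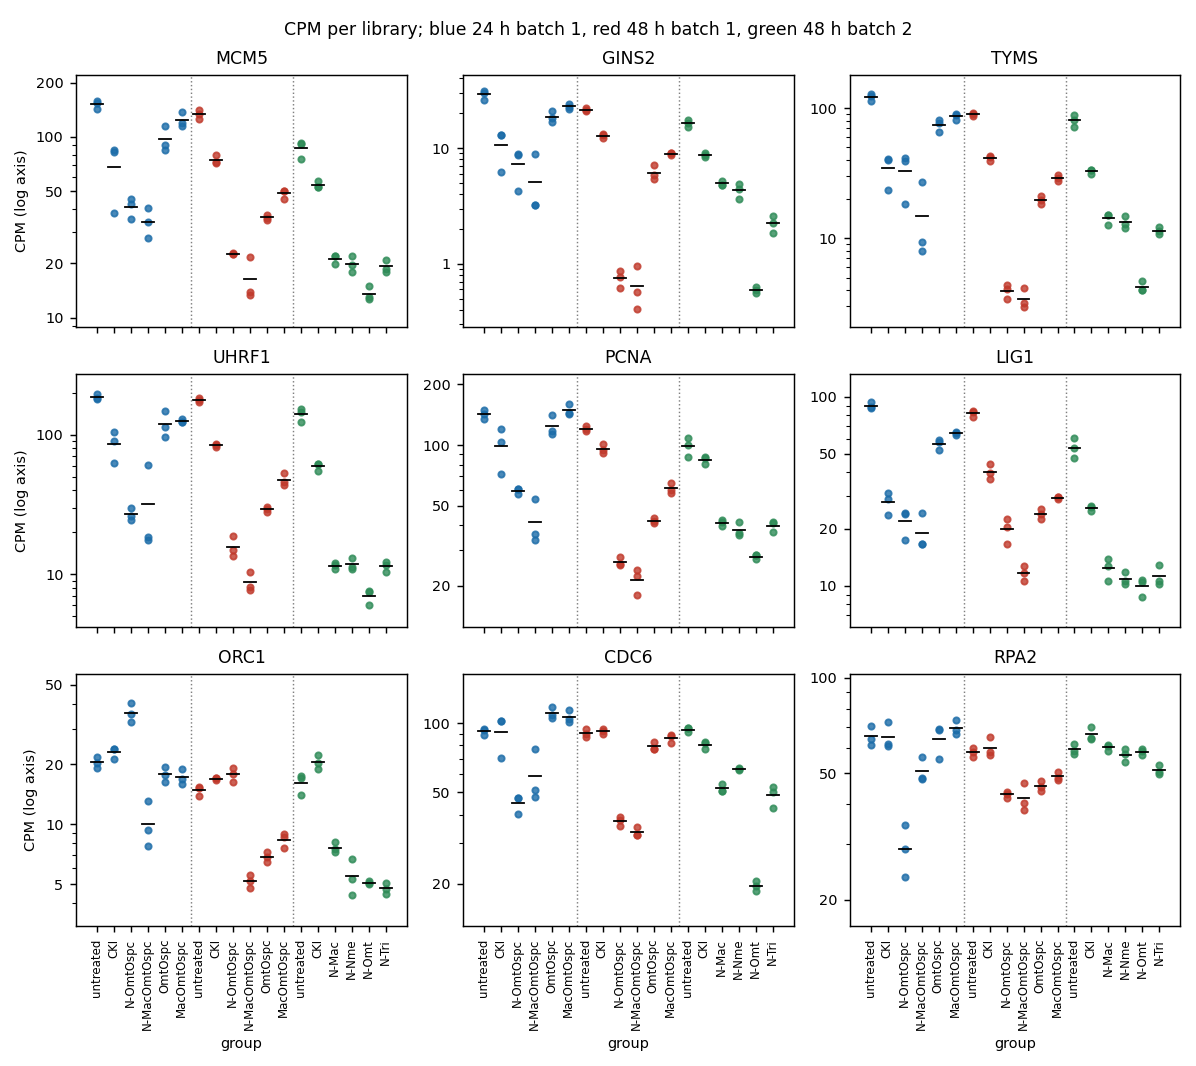
CPM on a log axis for MCM5, GINS2, TYMS, UHRF1, PCNA, LIG1, ORC1, CDC6 and RPA2, with a point for each library and the groups along the x axis (blue 24 h batch 1, red 48 h batch 1, green 48 h batch 2). MCM5, GINS2, TYMS, UHRF1 and LIG1 lie below the untreated libraries of the same time and batch in all treated groups. ORC1, CDC6 and RPA2 overlap or exceed those libraries in some.

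The loss of replication gene RNA deepened between 24 and 48 h with OmtOspc and MacOmtOspc, whose effect at 24 h was slight. The test was the interaction of treatment with time in batch 1, which asks whether the log2 fold change against untreated cells differed between 48 and 24 h. With OmtOspc 36 members were lower at 48 than at 24 h in this sense and none higher (7.29% and 4.57% of all genes), and with MacOmtOspc 37 were lower and none higher (12.3% and 8.7%). The medians of the difference were -0.83 and -0.75. With N-OmtOspc and N-MacOmtOspc, taken up below, the medians were -0.68 and -0.68, so a deeper loss at 48 h was not particular to OmtOspc and MacOmtOspc. The OmtOspc count was also 36 without OmtOspc replicate 2 at 24 h, which stood apart. With all libraries of the 2 times in a single fit, the MacOmtOspc count was 22.

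MCM2 and MCM3, helicase subunits, had the smallest adjusted p with OmtOspc. MCM2 was at 131, 135 and 133 CPM in untreated cells against 103, 99.1 and 98.5 with OmtOspc at 24 h, and at 126, 128 and 130.5 against 42.5, 41.3 and 40.6 at 48 h. MCM3 was at 319.7, 324 and 323 CPM against 244, 307 and 251 at 24 h, and at 311, 315 and 322 against 89.4, 89.3 and 89.0 at 48 h. Both were below the untreated libraries at both times, by more at 48 h. The differences were -1.20 ± 0.087 for MCM2 (edgeR's quasi-likelihood test, Benjamini-Hochberg adjusted p = 8.01e-06) and -1.54 ± 0.12 for MCM3 (edgeR's quasi-likelihood test, Benjamini-Hochberg adjusted p = 1.06e-05). With MacOmtOspc MCM6 and UHRF1 came out. MCM6 was at 87.3, 92.3 and 91.8 CPM in untreated cells against 81.0, 81.6 and 83.5 with MacOmtOspc at 24 h, and at 94.3, 92.99 and 92.2 against 39.4, 37.2 and 38.4 at 48 h. Its difference was -1.13 ± 0.074 (edgeR's quasi-likelihood test, Benjamini-Hochberg adjusted p = 8.65e-08), and that of UHRF1, whose values stand above, was -1.34 ± 0.093 (edgeR's quasi-likelihood test, Benjamini-Hochberg adjusted p = 1.29e-07).

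With N-OmtOspc members moved in both directions between the times. The log2 fold change was lower at 48 than at 24 h for 22 members and higher for 3, against 23% and 18.1% of all genes, and with library sizes alone as scaling the split was 17 to 6. GINS2, TYMS and TK1 had the largest drops, -2.83, -2.61 and -2.01. MCM3 was at 126, 131 and 120.4 CPM with N-OmtOspc at 24 h and at 51.8, 53.3 and 47.0 at 48 h, all 6 libraries below their untreated ones. Its difference was -1.29 ± 0.10 (edgeR's quasi-likelihood test, Benjamini-Hochberg adjusted p = 2.3e-06), and that of PCNA was -0.93 ± 0.10 (edgeR's quasi-likelihood test, Benjamini-Hochberg adjusted p = 2.64e-05). The 3 members that were less lowered at 48 h were RFC3, RPA2 and POLA2. RFC3 was at 29.4, 31.6 and 30.4 CPM in untreated cells against 11.7, 12.3 and 14.9 with N-OmtOspc at 24 h, and at 27.7, 25.5 and 26.7 against 22.7, 18.5 and 20.3 at 48 h. The differences were 0.85 ± 0.15 for RFC3 and 0.73 ± 0.15 for RPA2, and that of POLA2, 0.48 ± 0.18, lost its call when any single untreated library, N-OmtOspc replicate 2 at 24 h or any single N-OmtOspc replicate at 48 h was left out.

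With N-MacOmtOspc the effect was large at both times and 6 members differed, all lower at 48 h (2.61% of all genes were lower and 0.93% higher): GMNN, MCM10, CDC45, GINS2, PRIM1 and CHAF1B. CDC45 was at 46.9, 46.9 and 41.0 CPM in untreated cells against 10.1, 20.1 and 10.5 with N-MacOmtOspc at 24 h, and at 38.2, 39.9 and 38.8 against 2.43, 3.46 and 2.57 at 48 h. PRIM1 was at 19.4, 18.8 and 16.9 CPM against 4.08, 9.36 and 4.59 at 24 h, and at 13.5, 15.7 and 14.1 against 1.08, 1.22 and 1.18 at 48 h. For both genes replicate 2 at 24 h was the highest of its group. The differences were -2.05 ± 0.32 for CDC45 (edgeR's quasi-likelihood test, Benjamini-Hochberg adjusted p = 0.00580) and -2.81 to -1.19 as the 95% interval for PRIM1 (edgeR's quasi-likelihood test, Benjamini-Hochberg adjusted p = 0.0127). The count of 6 became 16 without N-MacOmtOspc replicate 2 at 24 h, which stood apart, 14 without replicate 1 and 13 without replicate 3. It became 3 without untreated replicate 2 or 3 at 24 h, untreated replicate 2 at 48 h or N-MacOmtOspc replicate 1 at 48 h.

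CKI went the other way, with 4 members less lowered at 48 than at 24 h (0.836% of all genes were higher and 0.728% lower): GINS4, LIG1, RRM1 and DUT. GINS4 was at 60.5, 57.9 and 55.9 CPM in untreated cells against 23.9, 27.7 and 28.9 with CKI at 24 h, and at 44.7, 42.0 and 43.8 against 32.3, 30.9 and 33.9 at 48 h, below the untreated libraries at both times. The differences were 0.70 ± 0.11 for GINS4 (edgeR's quasi-likelihood test, Benjamini-Hochberg adjusted p = 0.0136) and 0.68 ± 0.14 for LIG1 (edgeR's quasi-likelihood test, Benjamini-Hochberg adjusted p = 0.0326). All 4 members had a lower mean CPM at 48 than at 24 h in untreated cells and a higher one with CKI. GINS4 went from 58.1 to 43.5 CPM in untreated cells and from 26.8 to 32.4 with CKI, so the difference holds both changes. The median difference over the 39 members was 0.37. These calls rested on single libraries: the count was 11 without CKI replicate 1 at 24 h, which stood apart, 0, 1 and 1 without untreated replicates 1, 2 and 3 at 24 h, 1, 0 and 0 without those at 48 h, and 1, 0 and 0 without CKI replicates 1, 2 and 3 at 48 h.

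**Figure D4:**
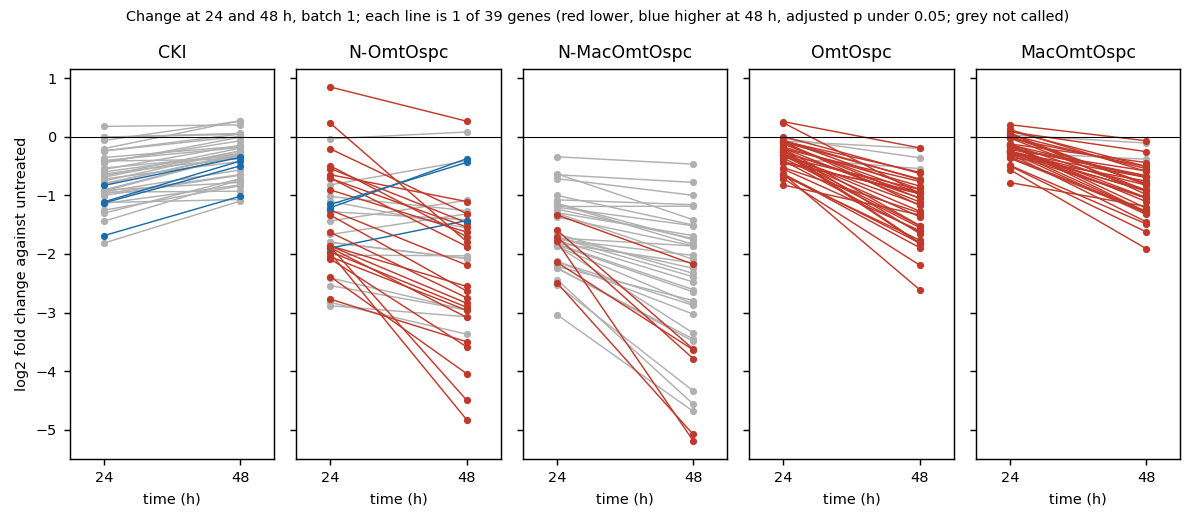
Log2 fold change against untreated cells at 24 and 48 h of batch 1, with a line for each of the 39 genes and a panel for each treatment; red lines were called lower and blue lines higher at 48 than at 24 h, and grey lines were not called. Nearly all lines are red with OmtOspc (36) and MacOmtOspc (37), and 4 lines are blue with CKI.

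Compared directly with CKI at the same equivalent dose, mixtures lacking compounds held less replication gene RNA at 48 h. In all, 12 pairs of treatments were compared, with adjustment over genes within each pair. N-OmtOspc was lower than CKI for 35 members (39.5% of all genes lower and 38.3% higher) with a median of -1.71, and N-MacOmtOspc for all 39 (30.5% and 29.9%) with a median of -1.88. In batch 2 N-Mac was lower than CKI for 39 members (36.2% of all genes lower and 36.6% higher), N-Nme for 38 (35.5% and 37.3%), N-Omt for 39 (40.4% and 40.1%) and N-Tri for 38 (38.6% and 38.4%), with medians of -0.95, -1.12, -1.96 and -1.31. None of these 6 comparisons at 48 h had a member called higher. The 4 members without a call for N-OmtOspc were ORC1, ORC6, GINS3 and RFC3, at 0.07 ± 0.083, 0.16 ± 0.080, -0.16 ± 0.10 and -0.05 ± 0.084. GINS3 was the member without a call for N-Nme, with a 95% interval of -0.25 to 0.13, and for N-Tri, with -0.34 to 0.04.

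UHRF1 was the member furthest below CKI with N-Mac (-2.36 ± 0.068), N-Nme (-2.34 ± 0.076) and N-Tri (-2.39 ± 0.064), and MCM10 with N-Omt (-5.10 ± 0.13). RRM2 was at -4.62 ± 0.071 against CKI with N-Omt, and at -1.34, -1.35 and -1.52 with N-Mac, N-Nme and N-Tri. For MCM2, by contrast, the values were -1.41 with N-Omt and -1.22, -1.37 and -1.44 with the others. These mixtures share the CKI libraries of batch 2.

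**Figure D5:**
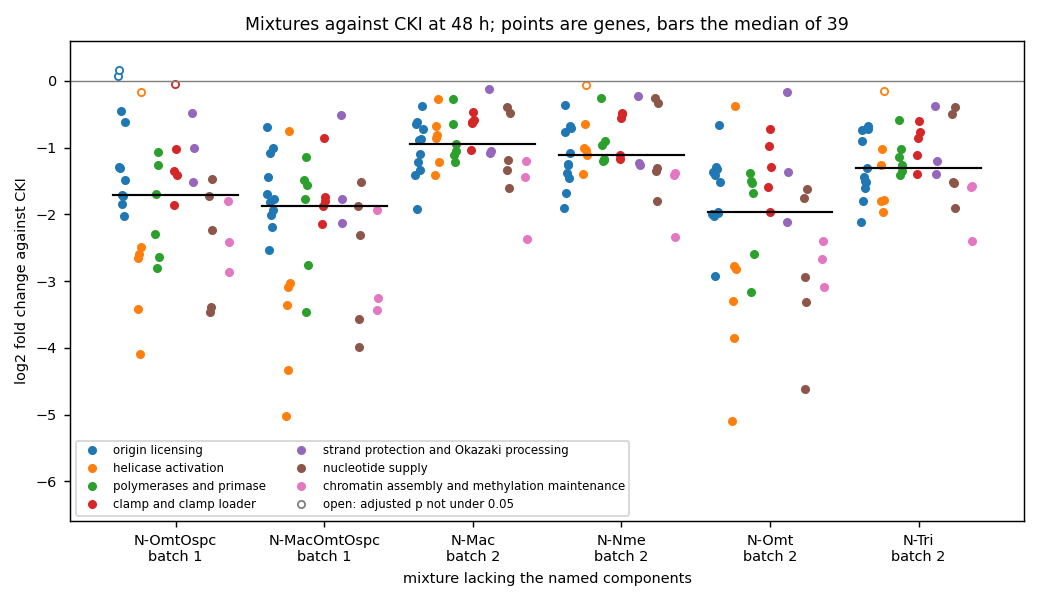
Log2 fold change of each of the 39 genes against CKI at 48 h for N-OmtOspc and N-MacOmtOspc (batch 1) and N-Mac, N-Nme, N-Omt and N-Tri (batch 2), grouped by role, with open symbols where the gene was not called. The medians are -1.71, -1.88, -0.95, -1.12, -1.96 and -1.31 in that order, and no called gene is above 0.

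At 24 h the mixtures differed less uniformly from CKI. N-OmtOspc was lower than CKI for 22 members and higher for 3 (27.5% and 26.5% of all genes), with the count 29 without CKI replicate 1. The 3 higher members were ORC1, MCM7 and TK1. MCM7 was at 152, 249.6 and 273 CPM with CKI against 376, 367 and 348 with N-OmtOspc, with 569, 532 and 508 in untreated cells. TK1 was at 113, 185 and 205 CPM with CKI against 439, 474 and 199 with N-OmtOspc, with 342, 323 and 293 in untreated cells. The differences were 0.66 ± 0.14 for ORC1, 0.70 ± 0.21 for MCM7, lost without N-OmtOspc replicate 1, and 1.15 ± 0.33 for TK1, lost without CKI replicate 1 or N-OmtOspc replicate 1 or 2. Those of ORC1 and MCM7 were also lost with library sizes alone.

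N-MacOmtOspc was lower than CKI at 24 h for 13 members and higher for none (10.8% and 12.3% of all genes), at a median of -0.93. That count was 34 without N-MacOmtOspc replicate 2 and 17 without CKI replicate 1, the libraries that stood apart. It was 0 and 3 without CKI replicates 2 and 3, and 4 and 0 without N-MacOmtOspc replicates 1 and 3. CHAF1B, at -1.47 ± 0.28, RRM2, at -1.50 ± 0.65, and MCM10, at -1.43 ± 0.56, had the values furthest below CKI. Without N-MacOmtOspc replicate 2 they were at -1.81, -2.87 and -2.52, and which members were called turned on these libraries. DESeq2 called 29 members and a single fit of all libraries of that time 31.

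Taking macrozamin out as well, or putting it in, was tested in 2 further pairs. N-MacOmtOspc against N-OmtOspc gave 23 members lower and 2 higher at 48 h (19.5% and 19.6% of all genes), at a median of -0.47, and the count of 25 was 15 without N-OmtOspc replicate 1. ORC1 (-1.77 ± 0.13) and MCM10 (-1.61 ± 0.27) were the furthest below. POLA1 and DUT were higher, at 0.81 ± 0.19 and 0.72 ± 0.16. POLA1 was at 2.96, 4.56 and 3.47 CPM with N-OmtOspc against 5.72, 7.34 and 6.23 with N-MacOmtOspc, and DUT at 10.9, 12.2 and 10.2 against 19.3, 13.8 and 21.7, without overlap in either gene. At 24 h 9 members were lower and RPA2 alone was higher (18.1% and 18.6% of all genes). The share of members lower was near that of all genes, so this count is no result about the members as a set. RPA2 was at 0.83 ± 0.17, ORC1 at -1.83 ± 0.22 and TK1 at -2.06 ± 0.32. The count of 10 was 18 without N-MacOmtOspc replicate 2, 6 without replicate 3, and 4 and 6 without N-OmtOspc replicates 1 and 2. With library sizes alone it was 9, with 5 higher and 4 lower, and with the replicate number as a block it was 16.

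MacOmtOspc differed from OmtOspc in no member at 24 h and in no gene of 14211 tested by edgeR's quasi-likelihood test (percent called 0 in both directions), with 4 members under an unadjusted p of 0.05 and 0 members called by DESeq2. Without OmtOspc replicate 1 there were 5 calls, and without replicate 2, which stood apart, 0. At 48 h MacOmtOspc was higher than OmtOspc for 24 members and lower for none (5.9% and 3.82% of all genes), at a median of 0.25. UHRF1 was at 0.70 ± 0.068, TYMS at 0.56 ± 0.069 and POLE2 at 0.55 ± 0.10 in that comparison, all called higher, and the count was 12 with all libraries of that time and batch in a single fit. Each of the 24 was still below untreated cells in the MacOmtOspc comparison given above.

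Untreated cells set the scale for these differences. Between 24 and 48 h 25 members fell in untreated cells of batch 1 and none rose (12.6% and 12.5% of all genes), at a median of -0.22, with TYMS at -0.46 ± 0.064 and ORC1 at -0.46 ± 0.087. The count was 16 and 13 without 24 h replicates 1 and 2 and 16 without 48 h replicate 2, 16 with the replicate number as a block and 2 with all libraries in a single fit. Untreated cells of batch 2 held less than those of batch 1 at 48 h for 21 members and more for 2 (29.8% and 29% of all genes), at a median of -0.22. With all libraries in a single fit the count of 23 was 11. The genes that were higher in batch 2 were POLA1 and RRM2. POLA1 was at 32.3, 27.1 and 26.7 CPM in batch 1 against 37.8, 41.7 and 33.4 in batch 2, and RRM2 at 126, 128 and 121 against 160.5, 171 and 149, without overlap in either gene. The differences were 0.35 ± 0.094 and 0.32 ± 0.061, and neither was called with all libraries in a single fit.

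The CKI effect at 48 h could be set against itself across batches, each with its own untreated cells. It differed for 3 members, all lower in batch 2 (7.2% of all genes were lower and 6.58% higher, so the members' share was near that of all genes): GINS1, CDC6 and CHAF1A. GINS1 was at 36.3, 31.5 and 30.6 CPM in untreated cells against 27.4, 28.0 and 27.1 with CKI in batch 1, and at 35.4, 35.5 and 30.4 against 21.2, 21.8 and 22.2 in batch 2. Its difference was -0.37 ± 0.11 (edgeR's quasi-likelihood test, Benjamini-Hochberg adjusted p = 0.0226), that of CDC6 -0.23 ± 0.069 (edgeR's quasi-likelihood test, Benjamini-Hochberg adjusted p = 0.0263), and that of CHAF1A -0.24 ± 0.078. The count of 3 rested on single libraries: it was 0 and 0 without untreated replicates 2 and 3 of batch 1, 1 and 1 without CKI replicates 2 and 3 of batch 1, 1 and 6 without untreated replicates 1 and 3 of batch 2, and 0 without CKI replicate 1 of batch 2. For the other 36 members no difference in the CKI effect between batches was called, at a median over all members of -0.09.

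Other genes of the pathway were counted in the same comparisons, whose shares of all genes stand beside the counts of members. The lists counted here were also chosen with earlier results of these data known. Their counts and medians do not stand for all genes of their kind. Of 44 further replication and nucleotide genes, CKI lowered 20 and raised 5 at 24 h, N-OmtOspc 36 and 4, N-MacOmtOspc 36 and 3, OmtOspc 2 and 0 (against 7.92% and 8.54% of all genes), and MacOmtOspc 13 and 2. At 48 h in batch 1 the numbers lower and higher were 19 and 9 with CKI, 38 and 3 with N-OmtOspc, 37 and 4 with N-MacOmtOspc, 35 and 5 with OmtOspc, and 31 and 4 with MacOmtOspc. In batch 2 they were 23 and 12 with CKI, 35 and 5 with N-Mac, 34 and 5 with N-Nme, 37 and 4 with N-Omt, and 35 and 6 with N-Tri. The medians of these genes lay between -1.13 and -0.12 over the 15 comparisons. The 20 mitosis genes, which act after replication, were all lower in 14 of the 15 comparisons, and 11 of them with OmtOspc at 24 h. Their median was below that of the members except with OmtOspc and MacOmtOspc at 48 h, where it was -1.07 and -0.76 against -1.11 and -0.91. With CKI at 48 h it was -1.10 in batch 1 and -1.44 in batch 2, against -0.32 and -0.40. With N-Omt it was -3.97 against -2.35. Of 19 genes of the E2F and pocket protein family and its partners, 14 were lower and 4 higher with N-MacOmtOspc at 48 h, and 10 and 4 with CKI in batch 1. Over the 15 comparisons 4 to 15 of these 19 were lower and 1 to 5 higher.

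Regulators of the members did not share a single direction. E2F1, an activator of this set, was called higher with CKI at 48 h, at 0.19 ± 0.057 in batch 1 and 0.38 ± 0.049 in batch 2, and lower with all 8 mixtures at 48 h, from -0.34 ± 0.068 with N-OmtOspc to -1.75 ± 0.075 with N-Nme. At 24 h E2F1 had no call with CKI (-0.28 ± 0.28), OmtOspc (-0.20 ± 0.14) or MacOmtOspc (0.09 ± 0.066). It was called lower there with N-OmtOspc (-0.42 ± 0.096) and N-MacOmtOspc (-1.17 ± 0.086). E2F7, a repressor of the same genes, was called higher in all 15 comparisons, from 0.21 ± 0.085 with CKI in batch 2 to 1.38 ± 0.059 with OmtOspc at 48 h. With CKI in batch 2 its libraries, at 146 to 149 CPM, lay within the untreated range of 108 to 152. Calls of these regulators are given in the main setting alone. E2F8, a repressor of the same family, was at -5.54 ± 0.18 with N-MacOmtOspc and -0.97 ± 0.087 with CKI at 48 h in batch 1. CCNE2, the cyclin that drives entry into S phase, was at -4.68 ± 0.15 with N-Omt. CDC7, the kinase that fires licensed origins, was at 0.38 ± 0.077 and 0.40 ± 0.072 with CKI at 48 h in the batches, called higher in both, and at -1.09 ± 0.092 with N-Omt, called lower.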

How the data were processed

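Poly(A)-selected RNA from 54 libraries of MDA-MB-231 cells was sequenced in pairs by the authors. Per the labels, the deposited values are raw read counts per gene symbol, with FastQC 0.11.4, Trim Galore 0.3.7, STAR 2.5.3a, Subread 1.5.2 with its featureCounts program and edgeR 3.22.3 named in the submitters' processing notes, on build hg19. The counts were used as deposited, in 27978 genes, and no value column was left unmapped. Each library was put in its group by its title and labels.

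Each comparison was fitted on its own libraries (6, or 12 for interactions) with edgeR 4.0.16 in R 4.3.3: filterByExpr, TMM factors and the quasi-likelihood F-test, with Benjamini-Hochberg adjustment over all genes tested and calls at an adjusted p under 0.05. CPM used TMM factors over all 54 libraries. No pair of libraries was identical. The alternatives were RLE size factors, library sizes alone, DESeq2 1.42.0, no filter beyond 1 count, the replicate number as a block, all libraries of a time and batch in a single fit, and each library left out. The scripts were tested on simulated data.

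Given library by library were the members with the lowest and highest mean log2 fold change of each role, members called against the direction of the others, and the 2 members with the smallest adjusted p in each interaction. All 39 could be named, and of other genes only E2F1, E2F7, E2F8, CCNE2 and CDC7 were given with values; 1 further gene is not reported here. Members, roles and lists were chosen with earlier results of these data known. Gene overlaps came from GENCODE v29 and promoters from RefSeq GRCh38.p14, with no coordinate moved between builds. Depth limits genes of few reads. Replicate 1 of CKI and replicate 2 of N-MacOmtOspc and OmtOspc at 24 h have columns without a number in the count table.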

Additional observations from a re-analysis of the deposited data

Results flagged for a closer look

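In 6 tests of an interaction, members differed in their response between times or batches. The log2 fold change against untreated cells differed between 48 and 24 h for 4 members with CKI, 25 with N-OmtOspc, 6 with N-MacOmtOspc, 36 with OmtOspc and 37 with MacOmtOspc, by edgeR's quasi-likelihood test of the interaction. Of all genes 0.836% were higher and 0.728% lower with CKI, 18.1% and 23% with N-OmtOspc, 0.93% and 2.61% with N-MacOmtOspc, 4.57% and 7.29% with OmtOspc, and 8.7% and 12.3% with MacOmtOspc. With OmtOspc, MacOmtOspc and N-MacOmtOspc all of these were lower at 48 h, and with CKI all were higher. The CKI response at 48 h differed between batches for 3 of the 39 members, GINS1, CDC6 and CHAF1A, where 7.2% of all genes were lower and 6.58% higher, a share near that of all genes and so no result about the members. The libraries on which the counts of 4, 6 and 3 rest are named with the results. In the N-MacOmtOspc libraries at 24 h, replicate 2 held the members at a median log2 ratio of -1.10 to untreated cells, where the other replicates were at -2.02 and -2.09. The part of this library's deviation in the results was not tested beyond leaving it out.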

How the results depend on the processing

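Counts of members called kept within 1.5 times of their value in 391 of 456 recomputed cases. At 48 h against untreated cells, and at 48 h against CKI, no alternative moved a count further than that. With all libraries of a time and batch in a single fit, the counts were 2 with OmtOspc and 2 with MacOmtOspc at 24 h, 2 for the CKI change between times, 24 for the N-MacOmtOspc change, 22 for the MacOmtOspc change, 2 for untreated cells between times, 11 for untreated cells between batches, 0 for the CKI change between batches, 31 for N-MacOmtOspc against CKI at 24 h and 12 for MacOmtOspc against OmtOspc at 48 h. With DESeq2 they were 8 for the CKI change, 15 for the N-MacOmtOspc change and 29 for N-MacOmtOspc against CKI at 24 h, and without the filter 15 and 20 for the latter 2. With library sizes alone the N-MacOmtOspc change gave 10, and N-MacOmtOspc against N-OmtOspc at 24 h gave 9, with the balance turned to 5 higher and 4 lower. Library sizes alone moved the median of all genes by more than 0.1 in 6 of 35 comparisons. The cause of these shifts was not tested. Shares of all genes called in the recomputed cases are not given, so a moved count may not be particular to the members.

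The replicate numbers were not taken as pairs: in none of 27 comparisons were all correlations of same-numbered deviations over 0.1 (range -0.66 to 0.775). This rule does not show that pairing is absent. Single correlations were high, and some 24 h libraries have columns without a number, so title numbers may not follow the cultures. With the replicate block the count was 1 for the CKI change, 16 for untreated cells between times and 16 for N-MacOmtOspc against N-OmtOspc at 24 h, and it moved no other count by over 1.5 times.

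Leaving out each library gave 2 to 22 calls with OmtOspc and 8 to 20 with MacOmtOspc at 24 h, 0 to 11 for the CKI change, 3 to 16 for the N-MacOmtOspc change, 13 to 26 for untreated cells between times, 0 to 6 for the CKI change between batches, 0 to 34 for N-MacOmtOspc against CKI and 0 to 5 for MacOmtOspc against OmtOspc at 24 h, and 4 to 18 at 24 h and 15 to 26 at 48 h for N-MacOmtOspc against N-OmtOspc. In the last pair at 24 h, MCM10, GINS1 and UHRF1 turned to -0.79, -0.61 and -0.56 without N-MacOmtOspc replicate 2, and ranged up to 0.67, 0.27 and 0.55 without replicate 3. A group left with 2 libraries was assumed to vary like the others of its fit.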
